A study of Mus musculus with 5 samples.

Results

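Spleen cells of C57/BL6 mice infused with live Balbc splenic cells were compared with spleen cells of C57/BL6 mice infused with apoptotic Balbc splenic cells. Balbc cells are allogeneic to these hosts, that is, they come from another inbred strain of the same species. The comparison holds 3304 of the 16271 cells of the series, 1186 from the live and 2118 from the apoptotic allogeneic library. Cells were the barcodes that held 1000 or more unique molecular identifiers (UMIs, each standing for 1 captured RNA molecule) from no fewer than 500 genes, with a mitochondrial share of 10% or less. Spleens were taken 48 h after infusion and digested with collagenase D and DNAse I. CD45+ cells and dendritic cells (DCs) were enriched with magnets in separate steps and then mixed in equal parts, so the enrichment partly sets the share of DCs. A saline library (2902 cells) and libraries after live (3685 cells) and apoptotic (6380 cells) B6 splenic cells, which are isogeneic to the host, served as background. Each group was 1 library. The number of mice behind a library and the way the infused cells were made apoptotic are not given in the sources used here. No spread between animals could be measured, so no test across samples was possible, and every interval below is a 95% interval that covers counting error only.

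Live allogeneic cells carry foreign MHC molecules that host T cells and natural killer (NK) cells can recognise, while apoptotic cells are taken up by DCs and macrophages of the spleen and are known to be cleared with little inflammation. Type I interferons act through the receptor chains Ifnar1 and Ifnar2 and raise genes that carry the interferon-stimulated response element (ISRE). Interferon-gamma, made mainly by NK and T cells, acts through Ifngr1 and Ifngr2 and raises genes that carry the gamma-activated site (GAS). Both raise the processing of antigen for MHC class I.

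Cells were clustered across all 5 libraries, and clusters were named from marker genes. The 10 classes with 30 or more cells and 50000 or more UMIs in both allogeneic libraries were compared. These were, with cells in the live and then the apoptotic library, cDC2-like (80 and 271), cDC1-like (90 and 248), plasmacytoid DC-like (pDC-like, 39 and 70), B-like (329 and 482), marginal zone B-like (103 and 141), T-like in cluster 5 (91 and 171), T-like in cluster 6 (61 and 64), NK-like (32 and 80) and erythroid-like cells (49 and 99), and a class called here by its leading genes the Lyz2 Cd209a cells (51 and 89). The last class carried markers of monocytes, macrophages and cDC2 together and was given no cell type name. Total depth was 12742889 UMIs in the live and 16049698 in the apoptotic allogeneic library, and the median cell held 4984.5 and 4470.5 UMIs. The median mitochondrial share was 4.21% and 3.81%. The allogeneic libraries shared 1 cell barcode. The Y-linked genes tested gave 1 UMI in each of them (Uty in the live and Kdm5d in the apoptotic library), and Xist was seen in 80.3% and 83.3% of the cells. No strain marker was analysed here, so infused Balbc cells that stayed in the spleen could not be told apart from host cells.

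Promoters are shown first because many genes that lead the comparison share a motif there. The sequences are the 250 bases before the annotated start of 5 genes described below, from RefSeq (build GRCm38.p6), written 5′ to 3′ on the strand of the gene. Capitals mark matches to the ISRE core GAAANNGAAA, searched on both strands.
Isg15 (chr4:156200819-156201068, minus strand): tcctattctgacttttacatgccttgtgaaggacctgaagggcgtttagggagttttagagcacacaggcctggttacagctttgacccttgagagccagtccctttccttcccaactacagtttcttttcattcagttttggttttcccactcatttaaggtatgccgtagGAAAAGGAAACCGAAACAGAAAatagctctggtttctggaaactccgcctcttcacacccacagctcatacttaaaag
Ifit3 (chr19:34583279-34583528, plus strand): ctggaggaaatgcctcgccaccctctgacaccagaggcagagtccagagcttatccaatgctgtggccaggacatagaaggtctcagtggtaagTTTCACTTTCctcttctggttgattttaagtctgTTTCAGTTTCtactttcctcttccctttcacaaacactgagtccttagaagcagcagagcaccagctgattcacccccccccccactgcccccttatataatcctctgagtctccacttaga
Ifi213 (chr1:173599273-173599522, minus strand): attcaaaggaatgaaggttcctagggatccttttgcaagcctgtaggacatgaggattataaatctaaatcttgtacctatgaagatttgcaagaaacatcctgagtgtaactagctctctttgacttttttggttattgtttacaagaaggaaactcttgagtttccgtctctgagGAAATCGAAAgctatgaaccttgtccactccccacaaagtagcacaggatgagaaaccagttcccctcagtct
Cxcl10 (chr5:92348890-92349139, minus strand): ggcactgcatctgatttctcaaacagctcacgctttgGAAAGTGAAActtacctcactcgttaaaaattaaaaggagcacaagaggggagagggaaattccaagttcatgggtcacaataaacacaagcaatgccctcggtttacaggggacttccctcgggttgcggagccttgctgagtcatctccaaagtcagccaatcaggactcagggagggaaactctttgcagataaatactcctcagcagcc
H2-T23 (chr17:36032702-36032951, minus strand): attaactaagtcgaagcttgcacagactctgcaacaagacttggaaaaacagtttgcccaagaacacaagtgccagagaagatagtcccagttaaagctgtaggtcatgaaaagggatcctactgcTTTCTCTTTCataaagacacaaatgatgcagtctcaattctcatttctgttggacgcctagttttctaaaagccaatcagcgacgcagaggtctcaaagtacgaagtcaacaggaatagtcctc

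The ISRE core lay in this window in 20 of the 42 type I interferon response genes found in the promoter table (47.6%), in 11 of 18 interferon-gamma response genes (61.1%) and in 936 of all 27018 genes (3.46%). The GAS core TTCNNNGAA lay in 11.9% of the same type I genes, 55.6% of the gamma genes and 8.13% of all genes. Isg15 held 3 matches, which overlap each other, Ifit3 held 2, and Ifi213, Cxcl10 and H2-T23 held 1 each. Irf7, Psmb9, Tap1, Cxcl9 and Ifi47, which are described below, held no ISRE core in these letters. A match is a description of the sequence and not a measurement of binding.

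Genes induced by type I interferon stood higher after live than after apoptotic allogeneic cells in most classes of the spleen. For each class the UMIs of all its cells were summed and scaled to the total of the sum (CPM). The ratio of a gene is given on the log2 scale with 10 CPM added to both sides. A gene counts as higher or lower past 1.5-fold (0.585 on that scale), among genes with 20 or more UMIs in both sums together. The median ratio over a list of 54 type I interferon response genes was above 0 in 10 of 10 classes and past 1.5-fold in 8. It was 1.42 in B-like cells, 1.31 in the Lyz2 Cd209a cells, 1.28 in marginal zone B-like cells, 1.19 in T-like cells of cluster 5, 0.97 in cDC2-like cells, 0.69 in pDC-like cells, 0.66 in erythroid-like cells and 0.65 in T-like cells of cluster 6. The lowest medians were those of the cDC1-like cells (0.50) and the NK-like cells (0.19). Over all genes measured, the median ratio of a class lay between −0.11 (B-like) and 0.08 (cDC1-like). The members of the list were chosen with earlier results of these data known, so the counts below describe them.

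**Figure D1:**
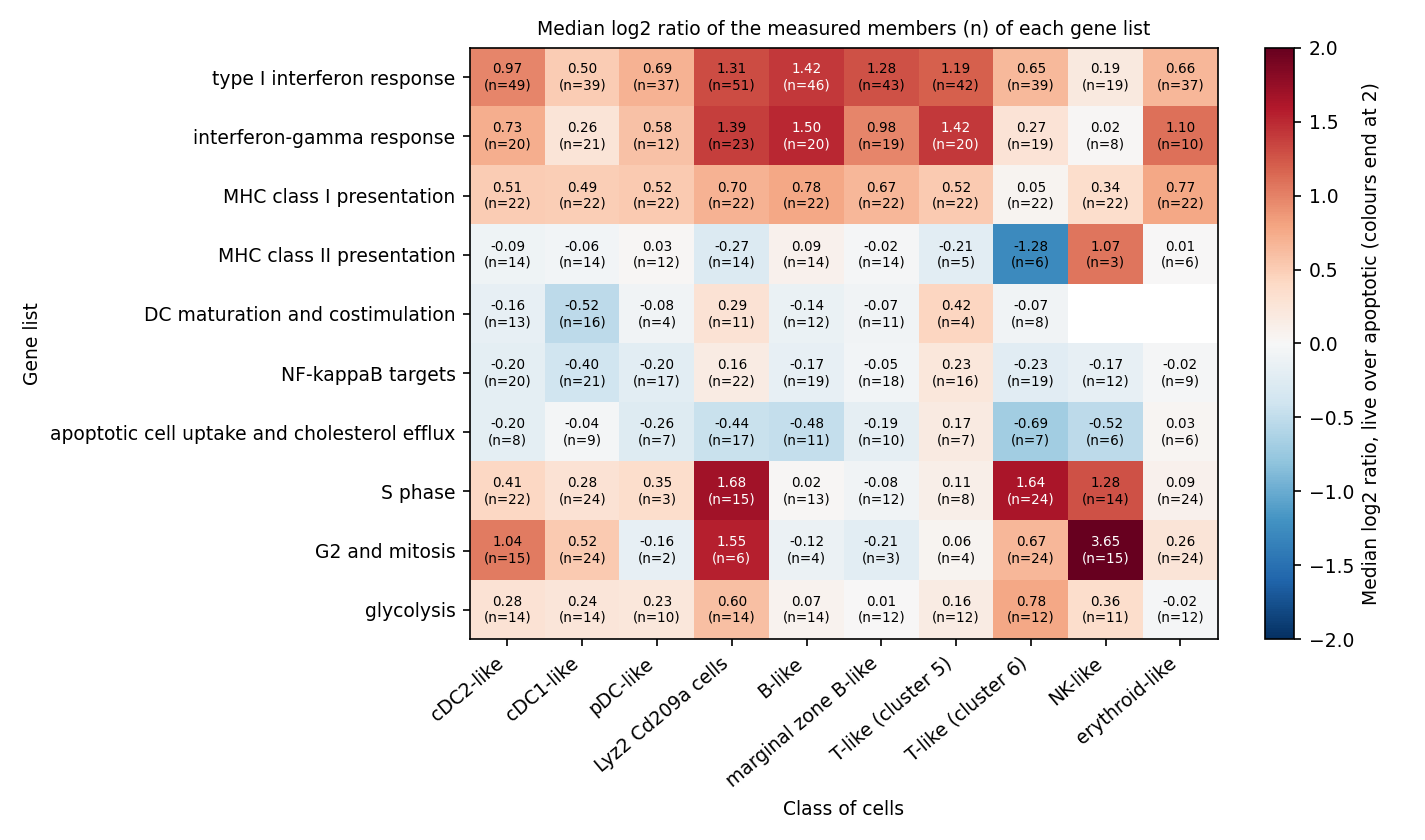
Median log2 ratio of live over apoptotic allogeneic CPM (10 CPM added) for gene lists in each compared class, 1 library a side. The type I interferon medians run from 0.19 in NK-like cells to 1.42 in B-like cells, all above 0.

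The number of members past 1.5-fold was read against the same count over all genes of the class. In cDC2-like cells 39 of 49 measured members were higher and 0 lower, where 5.6% of all 7949 genes were higher and 5.17% lower. The cDC1-like cells had 17 of 39 higher and 1, Ifitm3, lower, against 3.82% and 2.48% of 8587 genes. In pDC-like cells the count was 21 of 37 higher and 0 lower, against 7.97% and 10.4% of 5296 genes. Among the Lyz2 Cd209a cells 45 of 51 were higher and 0 lower, against 13.6% and 8.72% of 6248 genes. All 4 classes thus had a far larger share of the list than of the transcriptome on the higher side.

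B-like cells had 39 of 46 higher and 0 lower, against 2.56% and 5.52% of 7899 genes. Marginal zone B-like cells had 36 of 43 higher and 0 lower, against 4.38% and 7.3% of 6368 genes. T-like cells of cluster 5 had 37 of 42 higher and 0 lower, against 6.42% and 7.21% of 5700 genes. In T-like cells of cluster 6, 20 of 39 were higher and 1, Ly6e, lower, but there 19.8% and 16.4% of 6133 genes were past 1.5-fold. NK-like cells had 5 of 19 higher and 1, Parp14, lower, against 12.1% and 16.6% of 3699 genes. Erythroid-like cells, which hold few immune transcripts, had 20 of 37 higher and 0 lower, against 1.39% and 0.725% of 8693 genes. The list stood closest to its background in NK-like cells.

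The split of all genes into higher and lower moved with the scaling of the sums, while the type I interferon medians were above 0 in 10 of 10 classes under both scalings. Scaling by the median of gene ratios instead of the total shifted all ratios of a class by −0.16 (T-like cells of cluster 6) to 0.14 (cDC1-like cells). With it, the genes higher and lower went from 445 and 411 to 330 and 516 in cDC2-like cells. They went from 328 and 213 to 152 and 320 in cDC1-like cells and from 848 and 545 to 638 and 704 in the Lyz2 Cd209a cells. In B-like cells they went from 202 and 436 to 311 and 249, in marginal zone B-like cells from 279 and 465 to 358 and 374, and in T-like cells of cluster 6 from 1216 and 1003 to 1574 and 724. No direction for the transcriptome as a whole is read from these counts.

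The saline library lay between the allogeneic libraries for this list in 9 of 10 classes. Set against the same saline cells, the live library was above them in 9 of 10 classes, with medians from −0.02 in NK-like to 1.26 in the Lyz2 Cd209a cells. The apoptotic allogeneic library was below the saline cells in 10 of 10, with medians from −0.40 to −0.05. Its median over all genes was also below saline in every class, from −0.09 in T-like cluster 5 to −0.045 in erythroid-like cells. In pDC-like cells the list was at −0.050 and all genes at −0.058. The apoptotic isogeneic library was below saline for the list in 9 of 10 classes and the live isogeneic library in 6. All these comparisons use the same saline library. In cDC2-like cells the summed CPM of the list was 8583.5 after live allogeneic, 4002 after apoptotic allogeneic, 4648 after saline, 4137.5 after live isogeneic and 4618 after apoptotic isogeneic cells, so the live allogeneic library stood above the other 4, which lay close together. The ratio of live to apoptotic allogeneic was 2.15-fold (2.07 to 2.22). The sums were 9408 and 3581 CPM in T-like cells of cluster 5 (2.63-fold, 2.51 to 2.75), with 4083 in saline. In T-like cells of cluster 6 they were 6123 and 4306 CPM, with 6247 in saline, and in NK-like cells 3071 and 2660.3 CPM (1.15-fold, 1.04 to 1.28), with 3282 in saline. In both of these classes the saline sum was above the live sum.

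Isg15 (ENSMUSG00000035692, a protein-coding gene on chromosome 4, 156199424 to 156200818 on the minus strand of mm10), which encodes a ubiquitin-like protein joined to other proteins in an interferon response, shows the pattern by class. In cDC2-like cells it was at 374 CPM after live allogeneic, 83.1 after apoptotic allogeneic, 120.2 after saline, 81.6 after live isogeneic and 95 after apoptotic isogeneic cells. The live allogeneic library was the highest of the 5, by 4.50-fold over the apoptotic allogeneic library (3.65 to 5.56), with a UMI in 71.2% and 32.1% of the cells. In T-like cells of cluster 5 the same 5 values were 334, 26.9, 36.9, 37.01 and 42.04 CPM, a ratio of 12.4-fold (7.81 to 20.8). B-like cells were at 136, 11.6, 9.81, 20.8 and 18.1 CPM (11.7-fold, 7.10 to 20.5), and the Lyz2 Cd209a cells at 565, 50.6, 97.7, 151 and 152 CPM (11.2-fold, 7.90 to 16.2). The live allogeneic library was the highest of the 5 in these classes too. Live exceeded apoptotic by 6.88-fold in T-like cells of cluster 6, 6.73-fold in marginal zone B-like cells, 3.55-fold in erythroid-like cells, 3.04-fold in cDC1-like cells and 2.92-fold in pDC-like cells. In NK-like cells the values were 41.8 and 14.7 CPM from 9 and 4 UMIs (0.791 to 12.6-fold), with 44.2 in saline, so a difference was not detectable there at this depth.

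**Figure D2:**
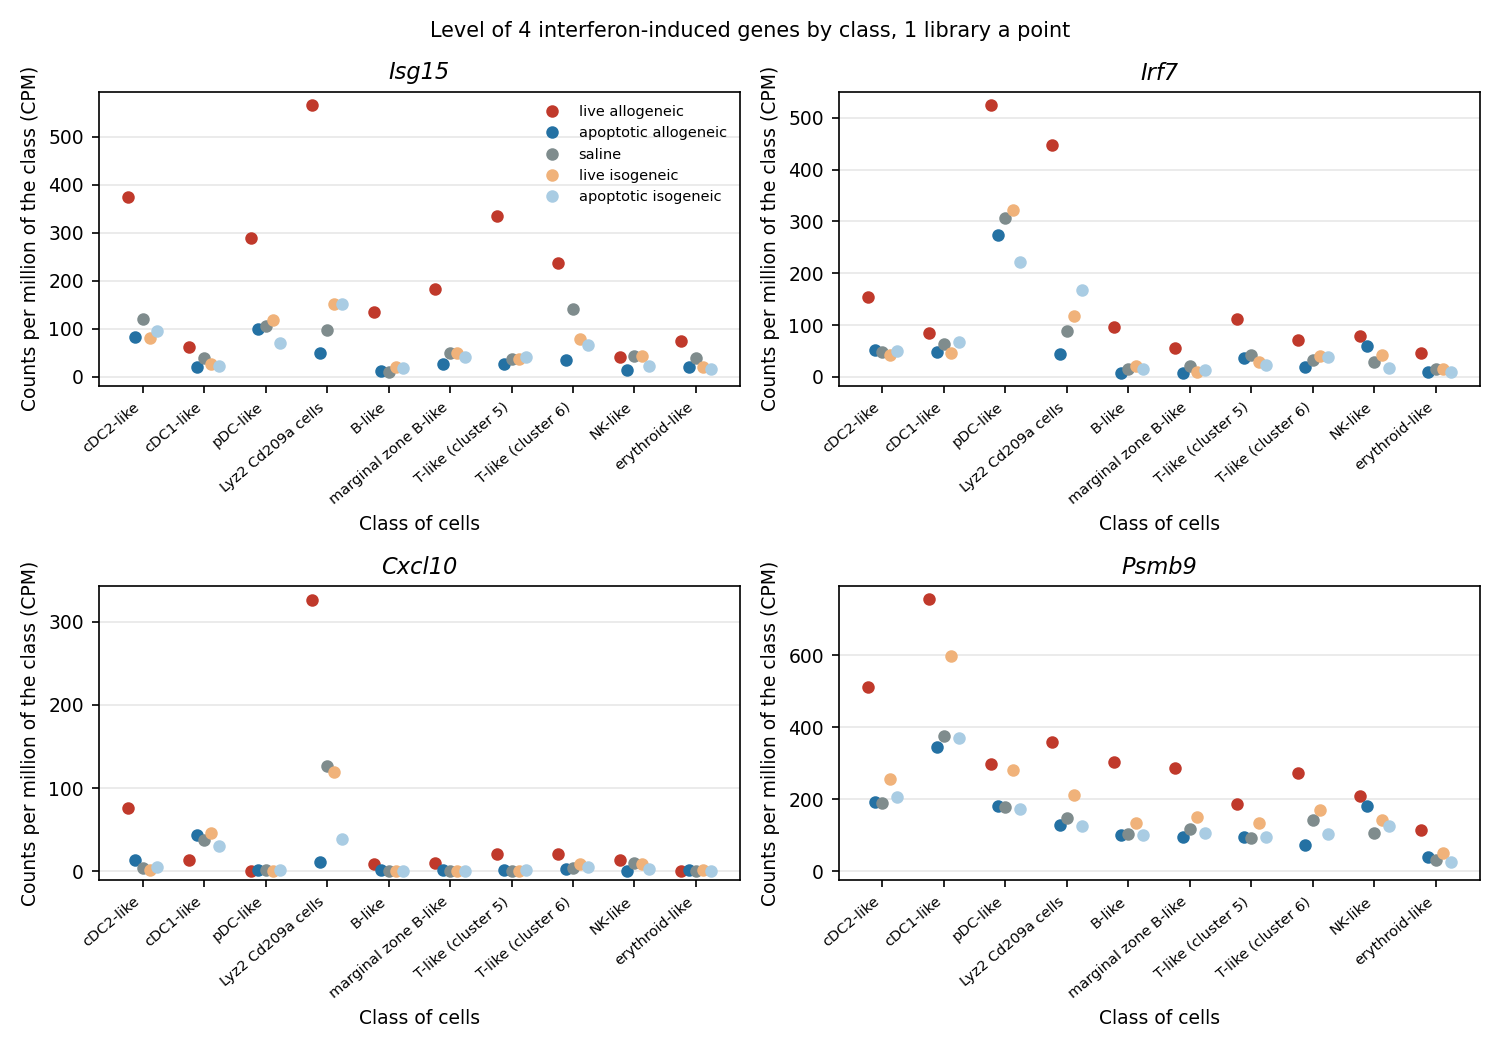
CPM of Isg15, Irf7, Psmb9 and Cxcl10 in each compared class and each of the 5 libraries, with 1 point a library. In cDC2-like cells the live allogeneic point for Isg15 lies at 374 CPM and the apoptotic allogeneic point at 83.1 CPM.

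Irf7, the transcription factor that amplifies type I interferon production, was at 154 against 52.2 CPM in live and apoptotic cDC2-like cells (2.94-fold, 2.19 to 3.95), with 48.1 in saline. It was at 447 against 43.5 CPM in the Lyz2 Cd209a cells (10.3-fold, 7.06 to 15.4), with 87.9 in saline, and at 96.4 against 8.18 CPM in B-like cells (11.8-fold, 6.51 to 23.4), with 15.3 in saline. In pDC-like cells, where saline stood at 307 CPM, it was at 524 against 273 CPM (1.92-fold, 1.53 to 2.40). Among the members of the list, Irf7, Bst2 and Trim30a were higher past 1.5-fold in 9 of 10 classes each, and Isg15 and Zbp1 in 9 of 9. Bst2 encodes tetherin, which holds budding viruses at the cell surface. Ifit3 was higher in 6 of 6 classes, Ifit1 in 7 of 7 and Ifi27l2a in 8 of 8.

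RNA outside cells also carried these genes. Barcodes with under 100 UMIs, which hold free RNA, had Isg15 at 251.9 CPM in the live allogeneic and at 42.9 CPM in the saline library, and Ifit3 at 52.5 and 14.9 CPM. The apoptotic allogeneic table lists only barcodes with 500 or more UMIs, so its free RNA could not be measured. The part of free RNA in the result was not tested. Within the live library Isg15 ranged from 41.8 CPM in NK-like to 565 CPM in the Lyz2 Cd209a cells, which lies on both sides of its level in free RNA.

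The share of cells with UMIs of the list was higher in the live library in most classes. After each cell was thinned to 1000 UMIs, 87.6% of all cells of the live library (85.6 to 89.4) had 3 or more UMIs of the type I list, against 67.8% in the apoptotic (65.7 to 69.7) and 74.4% in the saline library. Without thinning these shares were 98.7%, 97.4% and 97.5%. In T-like cells of cluster 5 the thinned shares were 97.8% (92.3 to 99.7) and 56.1% (48.4 to 63.7), with 66.4% in saline. Marginal zone B-like cells were at 96.1% (90.3 to 98.9) and 71.6% (63.4 to 78.9), and cDC2-like cells at 86.2% (76.7 to 92.9) and 69.7% (63.9 to 75.2). These intervals do not overlap within a class. The cDC1-like shares were 68.9% (58.3 to 78.2) after live and 46.4% (40.04 to 52.8) after apoptotic cells, with 66.1% in saline, so there the live library was near saline and the apoptotic library below it. Every pDC-like cell passed in both libraries, with medians of 16 and 12 UMIs per thinned cell. NK-like shares were 53.1% (34.7 to 70.9) and 48.8% (37.4 to 60.2), which overlap.

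**Figure D3:**
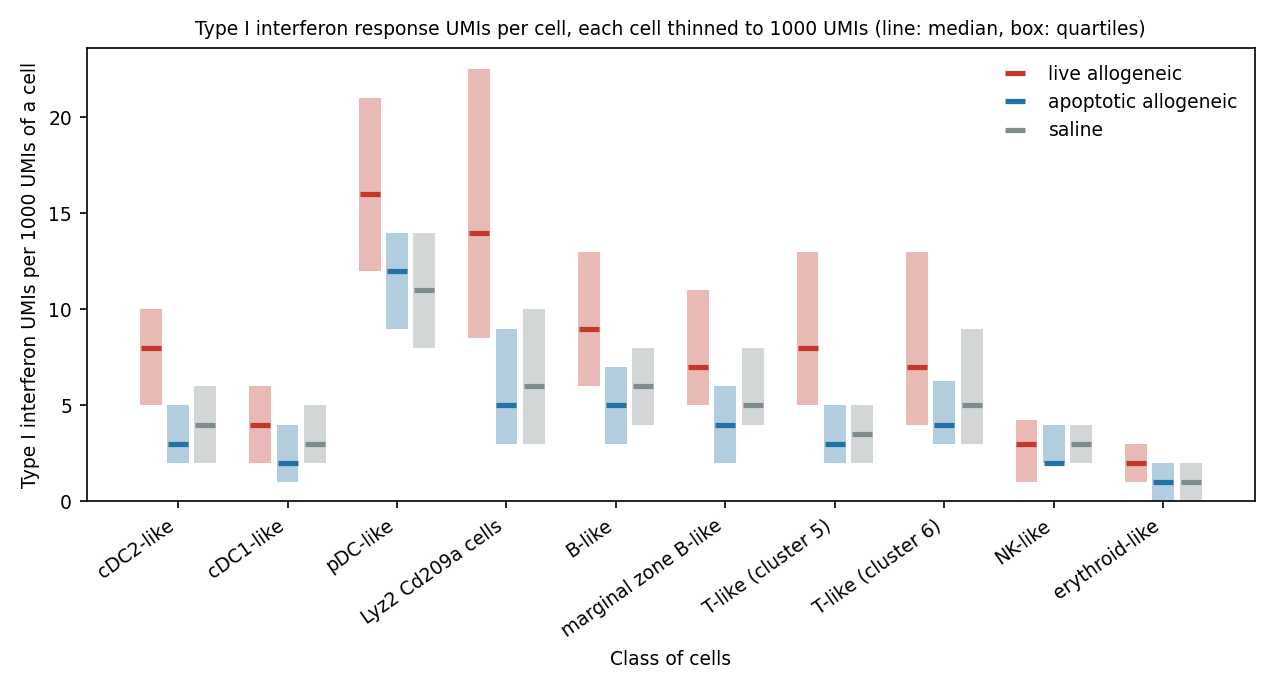
UMIs of the type I interferon response list per cell after thinning to 1000 UMIs, by class and library. Median counts in the live allogeneic, apoptotic allogeneic and saline libraries were 8, 3 and 4 in cDC2-like cells and 14, 5 and 6 in the Lyz2 Cd209a cells.

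The interferon-gamma list (28 genes) was higher in live cells of most classes and varied more between them. Its median was 1.5 in B-like cells (15 of 20 higher, 0 lower), 1.42 in T-like cells of cluster 5 (18 of 20, 0 lower) and 1.39 in the Lyz2 Cd209a cells (19 of 23, 0 lower). It was 1.10 in erythroid-like cells (8 of 10, 1 lower), 0.98 in marginal zone B-like cells (12 of 19, 1 lower), 0.73 in cDC2-like cells (11 of 20, 0 lower) and 0.58 in pDC-like cells (6 of 12, 1 lower). It was lowest in T-like cells of cluster 6 (0.27, 4 of 19 higher and 2 lower), cDC1-like cells (0.26, 7 of 21 higher and 2 lower) and NK-like cells (0.02, 1 of 8 higher and 0 lower). Of all genes 19.8%, 3.82% and 12.1% were higher in these 3 classes, so the list counts of T-like cluster 6 and NK-like cells are near the background. In the other classes the share of all genes ran from 1.39% in erythroid-like to 13.6% in the Lyz2 Cd209a cells. The values of T-like cluster 6 moved with thinning: with each cell thinned to 1000 UMIs, which leaves fewer genes to measure, its median was 1.69 for the interferon-gamma list and 1.19 for the type I list. In cDC1-like cells the lower members were Cxcl10 and Gbp4. Igtp, an immunity-related GTPase, was at 226 against 55.2 CPM in T-like cells of cluster 5 (4.10-fold, 2.85 to 5.98), with 73.8 in saline. Irf1, an interferon-induced transcription factor, was at 140.3 against 42.97 CPM in B-like cells (3.27-fold, 2.44 to 4.42), with 46 in saline. Gbp2, a guanylate-binding protein, was at 46.5 against 3.37 CPM in cDC2-like cells (13.8-fold, 5.66 to 40.6), with 10.3 in saline.

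Genes of MHC class I presentation were on the higher side in 9 of the 10 classes. Over 22 such genes the median was 0.78 in B-like cells (12 higher of 22 measured), 0.77 in erythroid-like cells (14 of 22), 0.70 in the Lyz2 Cd209a cells (14 of 22) and 0.67 in marginal zone B-like cells (14 of 22). It was 0.52 in T-like cells of cluster 5 (9 of 22), 0.52 in pDC-like cells (10 of 22), 0.51 in cDC2-like cells (9 of 22), 0.49 in cDC1-like cells (6 of 22) and 0.34 in NK-like cells (6 of 22), and 0 were lower in any of these. T-like cells of cluster 6 had 2 higher and 3 lower of 22 (median 0.05), no larger a share than the 19.8% and 16.4% of all genes. NK-like cells had 12.1% of all genes higher. In the other classes this share ran from 1.39% in erythroid-like to 13.6% in the Lyz2 Cd209a cells. Psmb9, a catalytic subunit of the immunoproteasome, was at 512 against 192 CPM in cDC2-like cells (2.66-fold, 2.28 to 3.102), with 189.5 in saline, and at 754 against 345 CPM in cDC1-like cells (2.18-fold, 1.99 to 2.39), with 376 in saline. H2-T23, which encodes the nonclassical class I molecule Qa-1, was at 257 against 106 CPM in B-like cells (2.42-fold, 1.99 to 2.94), with 114 in saline. In each of these the live allogeneic library was above the apoptotic allogeneic and the saline library. The live isogeneic library was also above saline, at 256 and 598 CPM for Psmb9 in cDC2-like and cDC1-like cells and 181 CPM for H2-T23 in B-like cells. Genes of MHC class II presentation, read by CD4 T cells, had medians of −0.09 in cDC2-like, −0.06 in cDC1-like and 0.09 in B-like cells.

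In cDC2-like cells, which present antigen mainly to CD4 T cells, the 10 genes with the highest ratio were Ifit3, Isg15, Ifi213, Zbp1, Ifi27l2a, Ifi47, Ifi207, Erh, Irf7 and Psma5, most of them known interferon-induced genes. Ifit3 (ENSMUSG00000074896, chromosome 19, 34583531 to 34588731), an antiviral gene, was at 135 CPM after live allogeneic, 17.4 after apoptotic allogeneic, 38.4 after saline, 27.7 after live isogeneic and 37.4 after apoptotic isogeneic cells. Live was the highest and apoptotic allogeneic the lowest of the 5 libraries, a ratio of 7.75-fold (5.09 to 12.1). Ifi213 of the PYHIN family of nucleic acid sensors was at 63.6 against 7.86 CPM (8.09-fold, 4.32 to 16.1), with 14.3 in saline. Zbp1, a sensor of Z-form nucleic acid, was at 146 against 31.99 CPM (4.56-fold, 3.25 to 6.45), seen in 57.5% and 16.6% of the cells, and Ifi27l2a at 1021 against 275 CPM (3.71-fold, 3.30 to 4.18). Erh and Psma5, a proteasome subunit, are not in the interferon lists and were 3.06-fold (2.25 to 4.16) and 2.81-fold (2.18 to 3.62) as high in live cells. The chemokine genes Ccl4 (118 against 34.2 CPM, 3.44-fold, 2.43 to 4.90) and Cxcl9 (86.9 against 12.3 CPM, 7.03-fold, 4.23 to 12.1) came from few cells, 5 live and 3 apoptotic cells for Cxcl9.

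Cd83 and Ccl5 were among the genes lower in live cDC2-like cells. Cd83 (ENSMUSG00000015396), a surface marker of maturing DCs, was at 35.7 CPM after live allogeneic, 113 after apoptotic allogeneic, 75.01 after saline, 88.9 after live isogeneic and 61.9 after apoptotic isogeneic cells (0.316-fold, 0.196 to 0.488). Live was the lowest and apoptotic allogeneic the highest of the 5. Ccl5, a chemokine that draws T cells, was at 242 against 721 CPM (0.336-fold, 0.282 to 0.397), with 754 in saline, seen in 46.2% and 78.97% of the cells. Il6st, the shared receptor chain of the interleukin-6 family, was at 49.6 against 125 CPM (0.397-fold, 0.265 to 0.576), with 169 in saline, and Egr3, an early response transcription factor, at 21.7 against 60.1 CPM (0.362-fold, 0.191 to 0.633), with 57.3 in saline. Tmod2 (0.199-fold), Arf2 (0.108-fold), Dst (0.230-fold), Ppfia1 (0.238-fold), Sox4 (0.345-fold) and Pbxip1 (0.431-fold) were also among the 10 lowest, as were Cd83, Il6st and Egr3. Of 13 measured genes of DC maturation and costimulation 0 were higher and 3 (Cd83, Birc3 and Il4i1) lower, with a median of −0.16, where 5.6% of all genes were higher and 5.17% lower. Of 20 NF-kappaB target genes 0 were higher and 5 lower (median −0.20), against the same shares. Cd86, a costimulatory ligand, was at 89.96 against 63.4 CPM (1.42-fold, 1.01 to 1.964) and did not pass 1.5-fold. The 12 cDC2 markers summed to 1964 against 2085 CPM. Of other types, the cDC1 markers summed to 519.6 against 592 CPM, with Xcr1 and Cadm1 at 0 in live cells, and the B cell markers to 106 against 157 CPM, with Pax5, Ebf1 and Fcer2a at 0 there.

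The cDC1-like cells, which are known to take up dying cells and present their antigens to CD8 T cells, had the lowest type I median among the DC classes and large ratios at the lower end. Gclc (ENSMUSG00000032350), the catalytic subunit of the first enzyme of glutathione synthesis, was at 11.5 CPM after live allogeneic and 103 after apoptotic allogeneic cells (0.112-fold, 0.0607 to 0.192), and at 100.5, 75.7 and 73.8 CPM after saline, live isogeneic and apoptotic isogeneic cells. Apol7c (ENSMUSG00000044309), an apolipoprotein L gene, was at 315 against 929.5 CPM (0.339-fold, 0.304 to 0.378), and at 1043, 899.6 and 673 CPM in those 3. Bcl2l11, which encodes the pro-apoptotic protein Bim, was at 6.59 against 57.1 CPM (0.115-fold, 0.0490 to 0.233), and at 52.1, 38.8 and 40.8 CPM in those 3. For these 3 genes the live allogeneic library was the lowest of the 5 and the apoptotic allogeneic library was close to saline. Gclc was seen in 14.4% of live and 20.2% of apoptotic cells, Apol7c in 54.4% and 79.8%, and Bcl2l11 in 8.89% and 21.8%. The fold intervals take each UMI as independent, also UMIs of 1 cell. Mefv, which encodes pyrin (0.117-fold), and the transcript Gm43305 (0.223-fold) were the other two of the 5 lowest. The class fell in clusters 13 and 16, with 62 and 28 live and 177 and 71 apoptotic cells. The type I median was 0.46 in cluster 13, over 39 measured members, and 1.20 in cluster 16, over 11. Across all libraries the median cell held 12026 UMIs in cluster 13 and 2209 in cluster 16. The 2 medians cover different members, so their sizes are not compared.

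Genes of DC maturation were on the lower side in live cDC1-like cells. Ccr7, the receptor that guides DCs to T cell zones, was at 4.94 against 25.6 CPM (0.193-fold, 0.0687 to 0.441), with 8.98 in saline. Fscn1, an actin-bundling gene of migrating DCs, was at 4.12 against 24.5 CPM (0.168-fold, 0.0529 to 0.411), with 1.38 in saline, so for both it was the apoptotic library that lay far from saline. In all, 6 of 16 measured maturation genes were lower and 1, Il15, was higher (17.3 against 7.01 CPM, 2.47-fold, 1.27 to 4.80), with a median of −0.52. Of 21 NF-kappaB target genes 4 were lower and 0 higher (median −0.40). Of all genes 2.48% were lower and 3.82% higher in this class. Il1b, an inflammatory cytokine, was at 27.2 against 65.9 CPM (0.413-fold, 0.276 to 0.600), with 33.5 in saline. The 11 markers of mature DCs, some of which are in the maturation list, summed to 105 CPM in live, 263 in apoptotic and 166 in saline cDC1-like cells. Fewer mature cells in the class and less RNA per cell cannot be told apart from these sums. The 5 highest genes were Cdc6, a replication licensing factor (4.70-fold, 2.64 to 8.63), Cenpa, a centromere histone (2.74-fold), Evi2 (2.82-fold), Psmb9 and Dynlt1f, a dynein light chain (2.60-fold).

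Il12b (ENSMUSG00000004296, chromosome 11), the p40 subunit of interleukin-12 and interleukin-23, had 0 UMIs in the live allogeneic library and 227 UMIs in 17 cells of the apoptotic allogeneic library. UMIs of 1 cell are not independent, so the cells are compared: 0 of 1186 live cells held a UMI, an interval of up to 0.311%, against 0.803% of apoptotic cells (0.468 to 1.28). Saline was at 0.413% (0.214 to 0.721), live isogeneic at 0.733% (0.483 to 1.06) and apoptotic isogeneic at 0.110% (0.0441 to 0.226). Over all cells it was at 0 CPM after live allogeneic, 14.6 after apoptotic allogeneic, 5.05 after saline, 3.04 after live isogeneic and 2.85 after apoptotic isogeneic cells, so by CPM the apoptotic allogeneic library was the highest and the live allogeneic library the lowest of the 5. Of those UMIs 109 lay in 7 cDC1-like cells and 109 in 7 mature DC-like cells. Within these classes a difference was not detectable, since 0 of 90 and 0 of 24 live cells allow up to 4.02% and 14.2%, which overlaps the apoptotic intervals of 1.14 to 5.73% and 3.89 to 18.5%. DCs were 19.6% of the live and 31.3% of the apoptotic allogeneic library, a share partly set by the enrichment. Its part in the Il12b values over all cells was not tested. The mature DC-like class, DCs that have matured and express Ccr7, had 24 live and 74 apoptotic cells and was too small to be compared across genes. In it Isg15 was at 595 against 73.6 CPM (8.08-fold, 5.40 to 12.4), and Cxcl9 at 1158 against 36.8 CPM (31.5-fold, 18.7 to 57.04), seen in 9 live and 2 apoptotic cells. Il12b and the single genes given for this class were chosen with their values known.

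pDC-like cells, which are known for making type I interferon, had 21 of 37 list members higher in the live library. Iigp1, an immunity-related GTPase, was at 246 against 67.3 CPM (3.65-fold, 2.44 to 5.59), and Slfn5, a Schlafen family gene, at 345 against 101 CPM (3.42-fold, 2.45 to 4.82). Cd8a was at 350.1 CPM after live allogeneic and 71.3 after apoptotic allogeneic cells (4.91-fold, 3.38 to 7.32), and at 117, 124 and 63.1 CPM after saline, live isogeneic and apoptotic isogeneic cells, so live allogeneic was the highest of the 5. Ccnd2, a cyclin gene (5.50-fold), and Cd38, an ectoenzyme gene (3.23-fold), were the others of the 5 highest. At the lower end stood the lectin genes Cd209a (34.8 against 174 CPM, 0.200-fold, 0.102 to 0.359) and Cd209d (128 against 485 CPM, 0.265-fold, 0.190 to 0.362), Tent5a (0.245-fold) and the transcription factor gene Creb1 (0.283-fold). The 11 pDC markers summed to 17570.4 against 15920.1 CPM with 0 past 1.5-fold higher and 0 lower. Of the T cell markers, Cd3e, Cd3d, Cd3g, Trac and Trbc2 were at 0 in both libraries, and the values of Trbc1, Il7r, Lef1, Tcf7, Bcl11b and Lat are not reported here.

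The interferon genes themselves were almost absent. The 19 type I and type III interferon genes had 0 UMIs in the live and 1 UMI in the apoptotic allogeneic library. Ifng was at 2.83 CPM (30 UMIs in 21 cells) in the live and 2.18 CPM (34 UMIs in 21 cells) in the apoptotic allogeneic library (1.30-fold, 0.769 to 2.19), with 3.24 in saline, 2.75 after live isogeneic and 4.94 after apoptotic isogeneic cells. The interval includes no difference. In NK-like cells Ifng was at 64.95 against 84.8 CPM (0.766-fold, 0.365 to 1.55). Of the receptor chains over all cells, Ifnar1 stood at 0.947-fold (0.837 to 1.07), Ifnar2 at 0.922-fold (0.846 to 1.005) and Ifngr1 at 0.720-fold (0.677 to 0.766). Ifngr2 is not reported here. DCs were 19.6% of the live and 31.3% of the apoptotic allogeneic library, and the part of this in the values over all cells was not tested. Ifngr1 was at 163 against 317 CPM in the Lyz2 Cd209a cells (0.514-fold, 0.399 to 0.657).

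In the Lyz2 Cd209a cells Cxcl10 and Cxcl9, ligands of the T and NK cell receptor CXCR3, were among the 3 highest genes. Cxcl10 (ENSMUSG00000034855, chromosome 5, 92346638 to 92348889) was at 326 CPM after live allogeneic cells, seen in 15 of 51 cells, and at 11.2 CPM after apoptotic allogeneic cells, seen in 4 of 89 (29.04-fold, 14.4 to 68.3). It was at 127, 119.9 and 38.5 CPM after saline, live isogeneic and apoptotic isogeneic cells, so the apoptotic allogeneic library was the lowest and the live allogeneic library the highest of the 5. Cxcl9 (ENSMUSG00000029417), another CXCR3 ligand beside it on the chromosome, was at 982 CPM (17 cells) against 66.01 CPM (7 cells), a ratio of 14.9-fold (11.04 to 20.5), and at 91.2, 173 and 108 CPM in the other 3. In cDC1-like cells Cxcl9 was at 617 against 515 CPM (1.20-fold, 1.09 to 1.31) and Cxcl10 at 13.2 against 43.4 CPM (0.303-fold, 0.168 to 0.512). Whether the ratio differs between these classes was not tested.

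Other genes of activation were higher in the live Lyz2 Cd209a cells. Cd40, a costimulatory receptor, was at 107 against 30.9 CPM (3.46-fold, 2.10 to 5.92), with 45.6 in saline, and Cd274, which encodes the inhibitory ligand PD-L1, at 107 against 40.7 CPM (2.63-fold, 1.66 to 4.24), with 35.8 in saline. Of 14 measured glycolysis genes 7 were higher and 1 lower (median 0.60), where 13.6% of all genes were higher and 8.72% lower. Among the higher was Ldha, lactate dehydrogenase, at 267 against 132 CPM (2.02-fold, 1.55 to 2.64). Apod, an apolipoprotein gene, was at 181 against 4.21 CPM (42.9-fold, 14.3 to 211), seen in 19.6% and 2.25% of the cells. The lowest were Fn1, fibronectin (8.77 against 261 CPM, 0.0336-fold, 0.0108 to 0.0798), F13a1, a coagulation factor chain of monocytes (12.3 against 114 CPM, 0.108-fold, 0.0421 to 0.233), and Krt80, a keratin (0.172-fold). Fn1 was seen in 3.92% of live and 12.4% of apoptotic cells, and F13a1 in 3.92% and 16.9%. UMIs of 1 cell are not independent, which these intervals leave out. After saline, live isogeneic and apoptotic isogeneic cells Fn1 was at 107.5, 403 and 409 CPM, and F13a1 at 97.7, 253 and 256.5 CPM. Of the class II list, H2-Oa (107 against 254 CPM, 0.421-fold, 0.310 to 0.566) and H2-Ob (42.1 against 89.9 CPM, 0.469-fold, 0.280 to 0.759), which together restrain peptide loading, were lower.

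Genes for taking up apoptotic cells and for exporting their cholesterol were on the lower side in these live cells. Of 17 measured members 8 were lower (Mertk, Timd4, Itgav, Lrp1, Abca1, Abcg1, Apoe and Mylip) and 2 higher (Nr1h3 and C1qb), with a median of −0.44. Of all genes 8.72% were lower and 13.6% higher. The sum of the list was 2442 CPM in live, 3918 in apoptotic and 1835 in saline cells. Apoe, a lipid carrier of macrophages, was at 663 against 2201 CPM (0.301-fold, 0.269 to 0.337), with 822 in saline, and was seen in 17.6% and 20.2% of the cells. Timd4, a receptor for the phosphatidylserine that dying cells expose, had 0 against 57 UMIs, in 4.49% of the apoptotic cells. Nr1h3, which encodes the sterol-sensing receptor LXR-alpha, was at 147 against 60.4 CPM (2.44-fold, 1.67 to 3.61), with 35.8 in saline. Marker sums of the class moved as well. Classical monocyte markers summed to 13975.5 CPM in live and 12507 in apoptotic cells (2 higher and 3 lower of 9 measured), and non-classical monocyte markers to 428 and 734 (0 and 4 of 9). Macrophage markers summed to 1525 and 1291 CPM (2 and 4 of 10), with Cd5l at 0 in live cells, and cDC2 markers to 982 and 1269.6 (1 and 5 of 10). The part of this make-up in the results of the class was not tested. In cDC2-like cells 0 of 8 measured members of the uptake list were higher and 0 lower, and in cDC1-like cells 0 of 9 were higher and 2 lower. Of all genes 5.6% were higher and 5.17% lower in cDC2-like cells, and 3.82% and 2.48% in cDC1-like cells.

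In B-like cells the highest genes were Ifi213 (205 against 25.2 CPM, 8.11-fold, 5.73 to 11.8), Irf7 and Tgtp2, a GTPase (61.1 against 3.41 CPM, 17.9-fold, 7.36 to 56.8). Saline was at 43.5 CPM for Ifi213 and 5.52 CPM for Tgtp2, so the live library was above both. B2m, the light chain of MHC class I, was at 1429.7 against 694 CPM (2.06-fold, 1.91 to 2.23), with 703 in saline. The lowest were Cacna1i, a calcium channel gene (0.258-fold), Pik3ip1, an inhibitor of PI3 kinase (0.336-fold), and Ppp1r21 (0.355-fold). In marginal zone B-like cells Zbp1 (201 against 19.8 CPM, 10.2-fold, 6.05 to 18.3), Slfn5 (12.4-fold, 6.29 to 27.98) and Ifit3 (8.13-fold, 4.72 to 15.04) led, and Inpp4b (0.288-fold), Themis2 (0.345-fold) and Il10ra, an interleukin-10 receptor chain (0.349-fold), were lowest. Hspa1a, a heat shock gene known to be induced when tissue is digested, was at 52.5 against 9.55 CPM in B-like cells (5.50-fold, 3.06 to 10.6), with 1.23 in saline. Over all cells it was at 57.8 CPM after live allogeneic, 38.5 after apoptotic allogeneic, 10.8 after saline, 21.8 after live isogeneic and 10.2 after apoptotic isogeneic cells, and its part in the B cell values was not tested.

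T-like cells of cluster 5 had the highest Ifit3 ratio of the classes. Ifit3 was at 204 CPM after live allogeneic and 6.73 after apoptotic allogeneic cells (30.3-fold, 12.6 to 95.2), seen in 45.05% and 2.34% of the cells, and at 14.8, 14.6 and 17.6 CPM after saline, live isogeneic and apoptotic isogeneic cells. Isg15 and Iigp1 (154 against 20.2 CPM, 7.64-fold, 4.38 to 14.3) followed. Effector genes were higher from low levels, with Ccl5 at 73.5 against 21.5 CPM (3.41-fold, 1.87 to 6.53), Prf1, perforin, at 53.3 against 25.6 CPM (2.08-fold, 1.13 to 3.93) and Srgn, the granule proteoglycan, at 479.5 against 276 CPM (1.74-fold, 1.44 to 2.10). Of 7 measured cytotoxic effector genes 4 were higher and 0 lower (median 0.64), against 6.42% and 7.21% of all genes. Of 8 measured lymphocyte activation genes 3 were higher and 0 lower (median 0.51). At the finer clustering, a T cell cluster led by Cd8b1 and Dapl1 held 49 live and 82 apoptotic cells. Another, led by Lef1 and Bcl11b, held 38 and 85. The part of such make-up in the values of the class was not tested. NK cell markers summed to 584 against 386 CPM (2 of 4 measured higher), with Ncr1 at 0 in both libraries, and T cell markers to 7305 against 6924 CPM. The lowest were Lfng, a Notch-modifying enzyme (0.372-fold), Tuba4a (0.374-fold) and Filip1l (0.368-fold).

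T-like cells of cluster 6 differed over a wide part of the transcriptome, and their 2 sums differed in make-up and depth. The class held 61 live and 64 apoptotic cells with 878182 and 319318 UMIs, and 40.98% and 7.81% of them carried cell cycle genes after thinning. At the finer clustering, a cluster of cycling cells with Cd3e had 18 live and 2 apoptotic cells and a median of 17337.5 UMIs per cell. With each cell thinned to 1000 UMIs the genes past 1.5-fold higher went from 1216 to 145, and those lower from 1003 to 114. CD8 T cell markers summed to 1448 CPM in live and 3993 in apoptotic cells (4081 in saline), regulatory T cell markers to 669.6 and 729.7 (901), and NK cell markers to 779 and 1190 (1496). Past 1.5-fold were 0 higher and 1 lower of 3 CD8, 1 and 2 of 6 regulatory and 0 and 3 of 6 NK markers, where 19.8% of all genes were higher and 16.4% lower. The part of the cycling cells and of these markers in the genes below was not tested. Tk1, thymidine kinase, was at 123 against 9.39 CPM (13.1-fold, 4.36 to 64.5), with 6.60 in saline, and Cdc6 had 52 against 0 UMIs, in 24.6% and 0% of the cells. Ppa1, a pyrophosphatase, was at 133 against 12.5 CPM (10.6-fold, 4.04 to 39.7), and Gapdh, a glycolytic enzyme, at 2201 against 736 CPM (2.99-fold, 2.61 to 3.44), with 723 in saline. Il7r, the interleukin-7 receptor of resting T cells, was at 169.7 against 770.4 CPM (0.220-fold, 0.178 to 0.271), with 806 in saline. Cd7 (0.158-fold), Cxcr6 (0.164-fold) and Ccl5 (1028 against 3454 CPM, 0.298-fold, 0.272 to 0.325) were lower. Of 13 measured cytotoxic effector genes 1, Gzmb, was higher and 7 were lower (median −0.60), against the same 19.8% and 16.4% of all genes.

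NK-like cells had the lowest type I interferon median of the 10 classes (0.19). Mki67, a proliferation marker, had 127 UMIs in 18.8% of the 32 live cells and 0 in the 80 apoptotic cells. Saline stood at 209 CPM, from 2.08% of its NK-like cells. The histone genes Hist1h3c (72 against 0 UMIs) and Hist1h1b (789 against 14.7 CPM, 53.5-fold, 20.5 to 199) were higher too. Hist1h1b was seen in 21.9% of live and 5% of apoptotic cells. Gzmb, granzyme B, was at 445 against 180.5 CPM (2.47-fold, 1.73 to 3.56), with 248 in saline, and Xcl1, a chemokine that draws cDC1, at 598 against 162 CPM (3.69-fold, 2.60 to 5.32), with 378 in saline. Prf1 was at 589 against 965 CPM (0.610-fold, 0.490 to 0.757), with 822 in saline. Adcy7 (0.283-fold), Cd84 (0.347-fold) and Zbtb20 (0.372-fold) were lowest. In erythroid-like cells Irgm1, an immunity-related GTPase, was at 45.1 against 10.5 CPM (4.31-fold, 2.91 to 6.48), Igtp at 4.55-fold and Psmb9 at 2.98-fold, and Muc13 (0.2499-fold), Mindy1 (0.396-fold) and Ramp1 (0.486-fold) were lowest.

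More cells of both live libraries than of the apoptotic libraries carried cell cycle genes. After thinning to 1000 UMIs, 22.3% of live cells (20 to 24.8) had 3 or more UMIs of the S phase and mitosis lists, against 16.6% of apoptotic (15.01 to 18.2) and 13.6% of saline cells. The live isogeneic library was at 21.98% (20.6 to 23.4), which overlaps the live allogeneic share, and the apoptotic isogeneic library at 9.06%. Erythroid-like cells, of which 98.99% or more passed in every library, count in these shares. They were 4.13% of live allogeneic, 4.67% of apoptotic allogeneic and 2.52% of saline cells. After live and apoptotic isogeneic cells they were 8.63% and 1.18%. Their part in the likeness or difference of the libraries was not tested. Without thinning the live allogeneic, apoptotic allogeneic and saline shares were 68.3%, 61.4% and 50.96%. The thinned shares were 32.5% (22.4 to 43.9) against 16.2% (12.1 to 21.2) in cDC2-like cells, with 13.2% in saline, and 41.1% (30.8 to 51.98) against 21.8% (16.8 to 27.4) in cDC1-like cells, with 20.7% in saline. They were 25.5% (14.3 to 39.6) against 4.49% (1.24 to 11.1) in the Lyz2 Cd209a cells and 40.98% (28.6 to 54.3) against 7.81% (2.58 to 17.3) in T-like cells of cluster 6. In these 4 classes the intervals of the live and apoptotic allogeneic libraries do not overlap. After live isogeneic cells 18.8% of cDC2-like cells passed (14.5 to 23.7), which overlaps the live allogeneic interval. The live isogeneic shares of 23.2% in cDC1-like cells (18.7 to 28.2), 6.62% in the Lyz2 Cd209a cells (3.22 to 11.8) and 20.7% in T-like cluster 6 (14.3 to 28.4) lay below the live allogeneic intervals. By gene list the apoptotic allogeneic library was above saline in T-like cells of cluster 6. The median over 16 measured mitosis genes was 1.69, against −0.07 over all genes. Few cells carried these genes there, 5 of 64 apoptotic and 5 of 83 saline cells. The shares of 7.81% (2.58 to 17.3) and 6.02% (1.99 to 13.5) overlap, so by cells a difference was not detectable. NK-like shares were 40.6% (23.7 to 59.4) and 18.8% (10.9 to 29.03), which overlap, and B-like shares 4.25% (2.35 to 7.04) and 5.39% (3.55 to 7.80), which overlap as well. The B-like class leaves out cluster 9, described below, which has cell cycle genes among its leading genes.

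**Figure D4:**
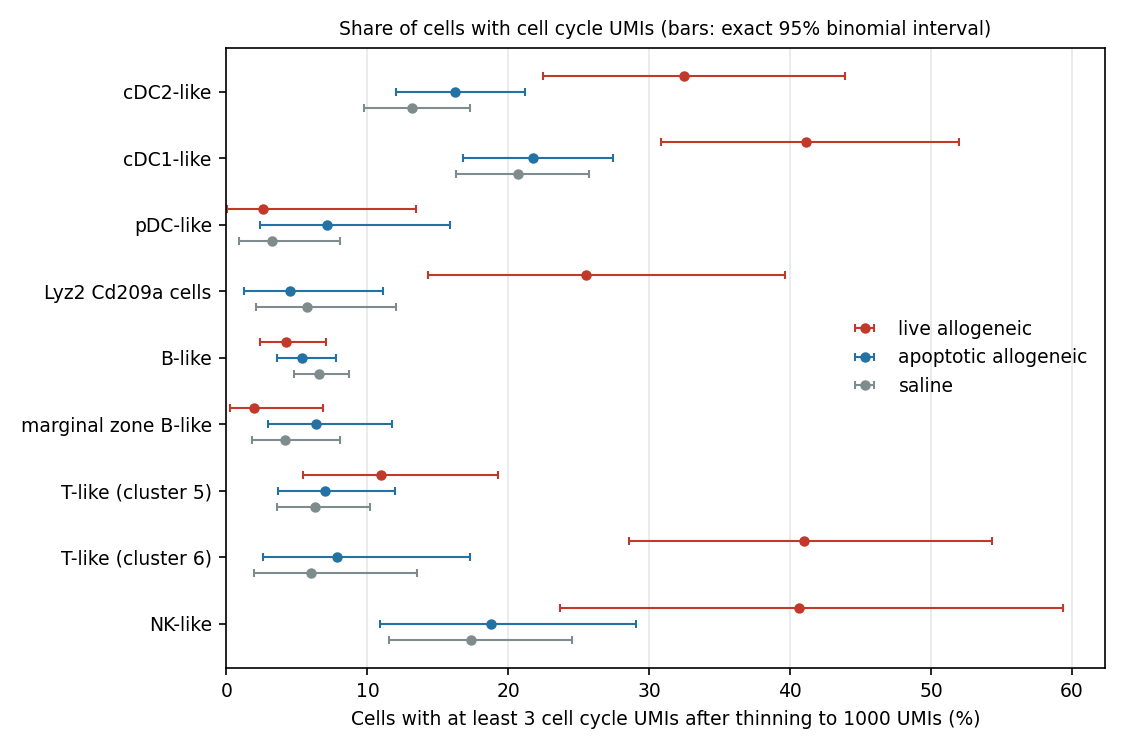
Percent of cells with 3 or more cell cycle UMIs after thinning to 1000 UMIs, by class and library, with exact 95% binomial intervals. Live cells are at 32.5% in cDC2-like and 41.1% in cDC1-like cells, where apoptotic cells are at 16.2% and 21.8%.

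By list, 12 of 15 measured mitosis genes were higher in live cDC2-like cells (median 1.04), with Hmgb2, a chromatin protein of dividing cells, at 898 against 432 CPM (2.08-fold, 1.86 to 2.32) and 344 in saline. Of the S phase genes 5 of 22 were higher there (median 0.41). In the Lyz2 Cd209a cells 15 of 15 measured S phase genes were higher (median 1.68), and their sum was 1225 against 282 CPM (4.34-fold, 3.70 to 5.10), with 362 in saline. Mcm5, of the replicative helicase, was at 78.95 against 11.2 CPM there (7.03-fold, 3.28 to 17.3). In T-like cells of cluster 6, 24 of 24 S phase genes were higher (median 1.64), and the sum was 4081 against 1105.5 CPM (3.69-fold, 3.31 to 4.13), with 631 in saline. In B-like cells 0 of 13 S phase and 0 of 4 mitosis genes were higher. Cluster 9, whose cells carry the B cell gene Cd79a, is not part of that class and is described below. Of all genes 5.6% were higher in cDC2-like cells, 13.6% in the Lyz2 Cd209a cells, 19.8% in T-like cluster 6 and 2.56% in B-like cells.

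The cell make-up of the libraries differed in DCs, within the limits set by the enrichment. DCs were 19.6% of live cells (17.4 to 22.02) and 31.3% of apoptotic cells (29.3 to 33.3), with 30.9% in saline, 22.1% after live isogeneic and 12.6% after apoptotic isogeneic cells, the lowest share of the 5. The cDC2-like cells were 6.75% (5.38 to 8.32) against 12.8% (11.4 to 14.3), with 11.8% in saline, and the cDC1-like cells 7.59% (6.15 to 9.24) against 11.7% (10.4 to 13.2), with 10.5% in saline. After live and apoptotic isogeneic cells the cDC2-like share was 8.09% and 5.46%, and the cDC1-like share 8.77% and 3.62%, so the apoptotic isogeneic library was below the live allogeneic library in both, and the low DC share was not particular to live cells. Of DCs alone the cDC2-like share was 34.3% (28.3 to 40.8) against 40.9% (37.1 to 44.7), and the pDC-like share 16.7% (12.2 to 22.2) against 10.6% (8.32 to 13.2), and both pairs of intervals overlap. The Lyz2 Cd209a cells were 4.30% and 4.20% of all cells. The yield of the enrichment in each library was not measured and cannot be told apart from these shares.

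Some clusters outside the compared classes held a larger share of the live library. Cluster 9, with a UMI of the B cell gene Cd79a in 96.7% (live) and 100% (apoptotic) of its cells, was 61 cells or 5.14% of the live library (3.96 to 6.56) and 28 cells or 1.32% of the apoptotic library (0.880 to 1.91), with 1.79% in saline. Its leading genes included the activation genes Nfkbid and Egr3 and the cell cycle genes Pclaf, Mki67 and Cenpf. The B-like class thus does not hold all cells with B cell genes. At a finer clustering, a cluster led by the activation genes Egr3, Nfkbid and Cd83, with Cd79a in 97.1% and 100% of its cells, held 105 live (8.85%) and 43 apoptotic cells (2.03%), with 2.52% in saline. Its type I interferon median was 1.65 over 40 measured members. The share of all genes past 1.5-fold was not measured in this cluster, so no count of members is given. Cluster 18, of cycling cells with a Sirpa UMI in 70.8% and 76.5% of them, was 2.02% of live and 0.803% of apoptotic cells. Cycling cells with Cd3e were 18 live (1.52%) and 2 apoptotic cells (0.0944%) at the finer clustering. A cluster can be set by the genes of 1 library, so these sizes are a description.

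Ribosomal protein, haemoglobin, antigen receptor, mitochondrial and sex genes were left out here. Of the rest, 1042 genes had 50 or more UMIs in both sums together in each of the 10 classes. Of these, 64 had a ratio above 0 in all 10, 43 had a ratio below 0 in all 10, and 0 were past 1.5-fold in the same direction in all. Among the 10 genes with the highest minimum were H2-T23 (0.54 to 1.65 over classes), Pfn1, Rbm3, Ost4, Eloc, Atp5g2, Tap1 (0.23 to 1.07), Btf3 and Ppia, of which H2-T23 and Tap1 belong to the class I list. These genes were not screened for possible free RNA, and H2-T23 in erythroid-like cells was at 4.39% of its CPM in its highest class. The live isogeneic library was above the live allogeneic library in 10 of 10 classes for Pfn1, in 3 for H2-T23 and in 0 for Tap1. It was above the apoptotic allogeneic library in 10, 10 and 3 of 10. The 10 with the lowest maximum were Lars2, Pbxip1, Rbm5, Foxn3, AC149090.1, Btg1, Gm42418, Ppp6r3, Akap13 and Macf1. Gm42418, which overlaps ribosomal RNA, was at 14218 CPM after live allogeneic, 17069.6 after apoptotic allogeneic, 14643 after saline, 57572 after live isogeneic and 14039.7 after apoptotic isogeneic cells. Malat1, a nuclear RNA, was at 21764 CPM after live allogeneic, 33689 after apoptotic allogeneic and 33072.5 after saline. Both bear on RNA quality and on the share of nuclear RNA, and their part in the shared differences was not tested.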

How the data were processed

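Each of the 5 deposited matrices holds whole-number UMI counts by gene and barcode, made by the authors with Cell Ranger 4.0 on mm10 per the submitters' processing notes. Cells were barcodes with 1000 or more UMIs, 500 or more genes and 10% or less mitochondrial UMIs. All libraries were clustered together (Python 3.11.15, scanpy 1.11.5, scipy 1.17.1, numpy 2.4.6) on 2000 variable genes, 30 principal components and 15 neighbours, with the Leiden method at resolution 1, which gave 24 clusters. Immunoglobulin, T cell receptor, mitochondrial and sex genes, Gm42418, AY036118 and both interferon lists, other than cell type markers, were left out of the clustering, so that the groups compared were not drawn by the interferon genes. Classes carry a cell type name where 3 or more markers of the type were past a log2 ratio of 1 over the other cells and in 10% or more of the cells of the cluster. Classes were compared where both libraries held 30 or more cells and 50000 or more UMIs. Scrublet called 1 live and 4 apoptotic allogeneic cells doublets, 0.0843% and 0.189%, so the caller cannot be relied on here, and the cells were kept.

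UMIs of a class were summed and scaled to CPM from the deposited counts. The log2 ratio of live over apoptotic used a pseudocount of 10 CPM, which understates the ratio of low genes. A gene was past the fold at 1.5-fold either way among genes with 20 or more UMIs in both sums together. Folds of single genes and lists of genes were taken without a pseudocount, with exact conditional 95% Poisson intervals, and Clopper-Pearson exact intervals were taken for shares of cells. The Poisson intervals take each UMI as independent, also UMIs of 1 cell. For shares of cells with interferon or cell cycle UMIs each cell was thinned to 1000 UMIs and counted where 3 or more UMIs of the list remained. The scripts were tested on simulated data. PCR duplicates are collapsed by the UMIs, but cells of 1 library are not replicates of a condition.

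The members and lists were chosen with earlier results of these data known. Genes were named by rule: per class, the highest and lowest log2 ratios among genes with 50 or more UMIs in both sums and a UMI in 10% or more of the cells of 1 library, 10 each way in cDC2-like cells, 5 in other DC classes and 3 elsewhere. The 10 genes with the highest minimum and the 10 with the lowest maximum over the classes were added. Ribosomal protein, haemoglobin, antigen receptor, mitochondrial and sex genes were left out of both choices. Genes at under 0.1 of their CPM in their highest class were left out of the choice per class only. List examples are the 4 members with the most UMIs past the fold. Some genes that these rules name are not reported here. Other genes given by class, among them Isg15, Irf7, Psmb9, Cxcl9, Cxcl10, Ifng, Il12b, Hspa1a, Cd274, Igtp, Irf1 and Gapdh, were chosen after their values were seen. H2-Ea, Mx1, Mx2, Cxcl11 and Marchf1 are not analysed here. Promoter sequences are those of RefSeq. The alternatives tried were a pseudocount of 1 CPM, sums scaled by the median of gene ratios, a minimum of 50 UMIs per gene, thinned cells, a cell filter of 2000 UMIs and 5% mitochondrial UMIs, doublet calls left out and clusters at resolution 2 (39 clusters).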

Additional observations from a re-analysis of the deposited data

Results flagged for a closer look

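The list of cytotoxic effector genes went opposite ways in the clusters with T cell markers. Its median log2 ratio of live over apoptotic was 0.640 in T-like cluster 5, with 4 of 7 measured members past 1.5-fold higher in the live library and 0 lower. The median in T-like cluster 6 was −0.598, with 1 of 13 measured members higher, Gzmb, and 7 lower, namely Nkg7, Ccl5, Ctsw, Klrk1, Tnfsf10, Cst7 and Zeb2. Of all genes 6.42% were higher and 7.21% lower in T-like cluster 5, and 19.8% and 16.4% in T-like cluster 6. The difference between the clusters was not tested, since each group is 1 library. CD8 T cell markers in cluster 6 summed to 1448 CPM in the live and 3993 CPM in the apoptotic library, and the part of that difference in the lower effector genes was not tested. Ccl5 is 1 of those markers and also a member of the effector list.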

How the results depend on the processing

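No paired analysis was possible because each group has 1 library, and no replicate could be left out. The type I interferon median was above 0 in 10 of 10 classes in the values reported, with a pseudocount of 1 CPM, with the stricter cell filter, without doublet calls, at resolution 2 and with the other scaling. It was above 0 in 9 of 10 with genes of 50 or more UMIs and with thinned cells, the exception in both being NK-like cells, at −0.07 and −0.07. Without cycling cells it was above 0 in 9 of 9, since erythroid-like cells then gave no value. The share of cells with type I interferon UMIs was higher in the live library in 9 of 10 classes as reported and at resolution 2, and in 8 of 10 with a minimum of 2 UMIs or with cells thinned to 2000 UMIs. Leaving out the 1 live and 4 apoptotic cells called doublets reversed no result and moved no count of genes by over 1.5 times. No ratio of a named gene reversed, while 12 moved with thinned cells, 7 with a pseudocount of 1 CPM, 6 with the stricter cell filter and 1 with the other scaling. NK-like cells had no interferon-gamma value after thinning. A higher minimum of UMIs per gene and thinning leave fewer genes to compare, and the cause of the moves below was not tested. A difference in Isg15 was not detectable in NK-like cells, where few UMIs of it were counted.

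With a pseudocount of 1 CPM, genes past 1.5-fold higher in the live library were 842 in cDC2-like cells (from 445), 960 in cDC1-like cells (from 328), 427 in B-like cells (from 202), 496 in marginal zone B-like cells (from 279), 566 in T-like cluster 5 (from 366) and 471 in erythroid-like cells (from 121). Genes past 1.5-fold lower in the live library were 925 in cDC2-like cells (from 411), 652 in cDC1-like cells (from 213), 830 in Lyz2 Cd209a cells (from 545), 1110 in B-like cells (from 436), 861 in marginal zone B-like cells (from 465), 751 in T-like cluster 5 (from 411) and 476 in erythroid-like cells (from 63). The type I interferon response median was 1.65 in B-like cells (from 1.42), 1.36 in T-like cluster 5 (from 1.19) and 0.88 in erythroid-like cells (from 0.66). The interferon-gamma response median was 1.89 in B-like cells (from 1.5), 1.77 in T-like cluster 5 (from 1.42) and 1.67 in erythroid-like cells (from 1.10). With sums scaled by the median of gene ratios, genes past 1.5-fold higher in the live library were 152 in cDC1-like cells (from 328) and 311 in B-like cells (from 202). Genes past 1.5-fold lower in the live library were 320 in cDC1-like cells (from 213) and 249 in B-like cells (from 436). With genes of 50 or more UMIs, genes past 1.5-fold higher in the live library were 274 in cDC2-like cells (from 445), 191 in pDC-like cells (from 422), 481 in Lyz2 Cd209a cells (from 848), 121 in marginal zone B-like cells (from 279), 160 in T-like cluster 5 (from 366), 717 in T-like cluster 6 (from 1216) and 168 in NK-like cells (from 446). Genes past 1.5-fold lower in the live library were 226 in cDC2-like cells (from 411), 162 in pDC-like cells (from 549), 247 in Lyz2 Cd209a cells (from 545), 283 in B-like cells (from 436), 190 in marginal zone B-like cells (from 465), 152 in T-like cluster 5 (from 411), 446 in T-like cluster 6 (from 1003) and 174 in NK-like cells (from 614). The type I interferon response median was 1.07 in marginal zone B-like cells (from 1.28). The apoptotic cell uptake and cholesterol efflux median was 0.32 in T-like cluster 6 (from −0.69). With each cell thinned to 1000 UMIs, the type I interferon response median was 0.75 in cDC2-like cells (from 0.97), 1.57 in B-like cells (from 1.42), 1.44 in T-like cluster 5 (from 1.19), 1.19 in T-like cluster 6 (from 0.65) and 0.51 in erythroid-like cells (from 0.66). The classical monocyte marker median was 0.89 in pDC-like cells (from −0.86) and 0.072 in T-like cluster 6 (from −0.94). Genes past 1.5-fold higher in the live library were 110 in pDC-like cells (from 422), 194 in Lyz2 Cd209a cells (from 848), 138 in marginal zone B-like cells (from 279), 178 in T-like cluster 5 (from 366), 145 in T-like cluster 6 (from 1216) and 125 in NK-like cells (from 446). Genes past 1.5-fold lower in the live library were 87 in pDC-like cells (from 549), 129 in Lyz2 Cd209a cells (from 545), 224 in marginal zone B-like cells (from 465), 253 in T-like cluster 5 (from 411), 114 in T-like cluster 6 (from 1003), 126 in NK-like cells (from 614) and 113 in erythroid-like cells (from 63). The interferon-gamma response median was 1.10 in Lyz2 Cd209a cells (from 1.39), 1.88 in T-like cluster 5 (from 1.42) and 1.69 in T-like cluster 6 (from 0.27). With cells of 2000 or more UMIs and 5% or less mitochondrial UMIs, the type I interferon response median was 1.23 in B-like cells (from 1.42) and 1.69 in marginal zone B-like cells (from 1.28). Genes past 1.5-fold lower in the live library were 107 in erythroid-like cells (from 63). The class shares of the live allogeneic library were 9.39% for cDC2-like cells (from 6.75%), 9.79% for cDC1-like cells (from 7.59%), 20.2% for B-like cells (from 27.7%), 4.63% for marginal zone B-like cells (from 8.69%), 10.1% for T-like cluster 5 (from 7.67%) and 4.23% for NK-like cells (from 2.70%). The class shares of the apoptotic allogeneic library were 16.96% for cDC2-like cells (from 12.8%), 14.3% for cDC1-like cells (from 11.7%), 5.63% for Lyz2 Cd209a cells (from 4.20%), 16.8% for B-like cells (from 22.8%), 3.09% for marginal zone B-like cells (from 6.66%) and 9.82% for T-like cluster 5 (from 8.07%). With clusters at resolution 2, the type I interferon response median was 0.85 in cDC2-like cells (from 0.97) and 0.89 in marginal zone B-like cells (from 1.28). The class shares of the live allogeneic library were 4.97% for cDC2-like cells (from 6.75%), 23.5% for B-like cells (from 27.7%), 6.07% for marginal zone B-like cells (from 8.69%) and 3.88% for T-like cluster 6 (from 5.14%). The class shares of the apoptotic allogeneic library were 10.8% for cDC2-like cells (from 12.8%), 19.7% for B-like cells (from 22.8%) and 5.33% for marginal zone B-like cells (from 6.66%). Without cycling cells, an alternative added after the data were seen, the type I interferon response median was 0.83 in cDC2-like cells (from 0.97), 0.64 in cDC1-like cells (from 0.50), 1.52 in Lyz2 Cd209a cells (from 1.31) and 0.92 in T-like cluster 6 (from 0.65).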
